A study of Mus musculus with 6 samples.

Results

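The 10 genes described here encode chemokine ligands that T cells can make: Ccl1, Ccl3, Ccl4, Ccl5, Ccl9, Ccl20, Ccl22, Cxcl3, Cxcl10 and Xcl1. They were taken by gene symbol from a table of 38483 genes, in which they have 18 transcripts, and all 10 had enough counts to be tested. Ccl1 passed that filter through wild-type libraries 1 and 2 and knockout library 1 only. RNA came from splenic CD4+CD62L+ T cells of B10.RIII mice that had been cultured for 3 days toward the Th17 state, the helper T cell state that makes IL-17A. The medium held 10 ng/ml of IL-6 and as much IL-23, with 1 ng/ml of TGF-β, and 10 µg/ml of an antibody against IFN-γ and of another against IL-4. There were 3 libraries from wild-type (IL-17A+/+) and 3 from knockout (IL-17A-/-) animals, so both groups share the strain, the cytokines and the blocking antibodies. The labels do not give the ages of the mice, the number of animals behind a library or how the knockout allele was made.

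Chemokines are small secreted proteins that draw cells along a gradient by binding G protein-coupled receptors. They are named for the spacing of their leading cysteines: CC for the Ccl genes, CXC for the Cxcl genes and a lone cysteine for Xcl1. Activated T cells release CCL3, CCL4, CCL5 and XCL1, and Th17 cells are known for CCL20, the ligand of CCR6, which they also carry. The series title presents IL-17A as a limit on Th17 pathogenicity, and the comparison of genotypes asks how the genes for these attractants differ when Il17a is missing.

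Library totals ran from 47335736 to 49743762 estimated counts. Il17a was at 161, 211 and 108 CPM (counts scaled to a fixed library total) in wild-type libraries 1, 2 and 3 and at 1.11, 0 and 0.0202 CPM in the knockouts, where a count of 0 allows up to 0.0614 CPM. Each of the 6 T cell markers was detected in the cultures (Cd3e, Cd3g, Cd4, Trac, Trbc2 and Lck, summed level 2403 to 3597 CPM), with Cd4 at 246 CPM in knockout 1 and between 379.6 and 634 CPM elsewhere. Libraries that share a replicate number resembled each other across all genes, so knockout 1 is set beside wild-type 1 (pair 1), and so on. The number 1 libraries stood apart in Cd8a, at 257 and 425 CPM against 33.7 to 66.1 CPM in the other 4. Xist, the RNA that coats the silenced X chromosome, was at 567 CPM or more in the wild-type libraries and knockout 3 and at 2.58 and 0 CPM in knockouts 1 and 2. Genotype therefore cannot be told apart from the sex-linked difference in pairs 1 and 2, and pair 3 has none.

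Within each pair, 5 of the 10 ligand genes were higher in the knockout all 3 times, namely Ccl3, Ccl4, Ccl20, Cxcl10 and Xcl1, and none was lower all 3 times. Over all 15121 tested genes, 16.6% were higher and 16.7% lower in all 3 pairs. The median log2 change over the 10 genes was 1.13 without and 1.04 with pairing in edgeR, beside 0.01 in each fit over all tested genes. The members were chosen with results of these data known, so neither figure supports a statement about the family. The spread between cultures was wide. The CPM ranges of the genotypes overlapped for all 10 genes, whereas 3.01% of tested genes lay wholly above and 3.13% wholly below the wild-type range in the knockout.

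No ligand gene passed edgeR's quasi-likelihood test between the genotypes, the main test, with Benjamini-Hochberg adjustment over all genes and a threshold of 0.05. All 10 had an adjusted p of 0.9999 and none had an unadjusted p under 0.05, and the test called 0% of the 15121 genes (1.67%, or 253, had an unadjusted p under 0.05). Il17a also had an adjusted p of 0.9999 in this test. On data simulated without pairing, the same test recovered 5% of 2-fold and 67% of 4-fold changes. Its lack of calls therefore says little about changes near 2-fold. With the replicate number as a block, edgeR and limma-voom again called 0% of genes, with 4 and 6 of the ligand genes at an unadjusted p under 0.05, against 9.73% and 10.9% of all genes (4.42% and 5.15% as higher). DESeq2 with the same block called 4 of the 10, all higher in the knockout (Ccl3, Ccl4, Ccl20 and Xcl1). It called 2.52% of all tested genes, 1.02% as higher. DESeq2 without the block called none of the 10, and 0.0860% of all genes, and gave no p-value for Ccl1 and Xcl1. Below, rose and fell refer to DESeq2 with the block, whose calls of ligand genes the other fits did not share. On simulated data this fit called unchanged genes more often than its threshold allows, and more often than edgeR or limma-voom with the block, which also exceeded it, so its calls are less certain than their adjusted p-values state. In bulk RNA, fewer cells of a type and less RNA per cell cannot be told apart.

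**Figure D1:**
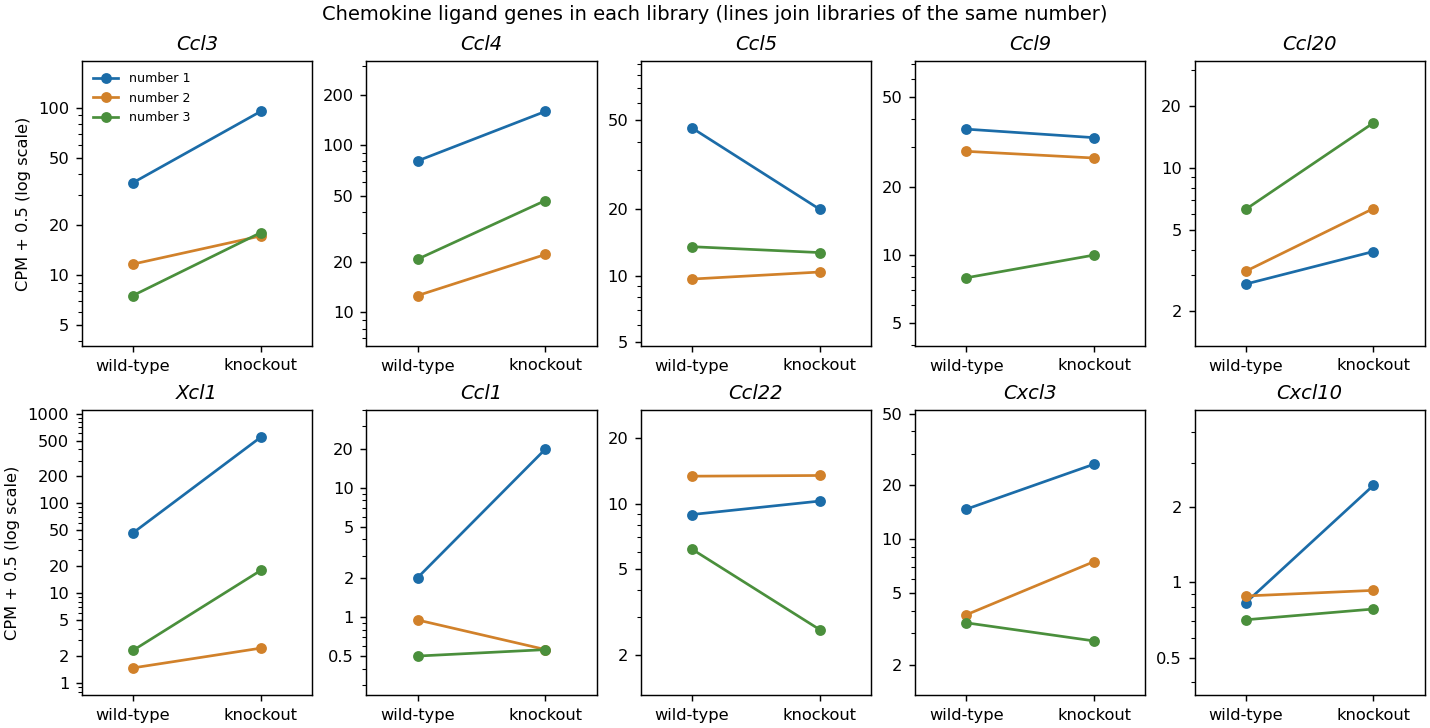
Level of each ligand gene as CPM + 0.5 on a log axis, wild-type on the left and knockout on the right of each panel, with lines joining libraries of the same replicate number. The lines of Ccl3, Ccl4, Ccl20 and Xcl1 slope upward in all 3 pairs, while the libraries of a genotype differ among themselves by 2.61-fold (wild-type Ccl20) to 280.2-fold (knockout Xcl1) in these 4 genes.

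Ccl3 and Ccl4 encode MIP-1α and MIP-1β, inflammatory attractants of monocytes and T cells. Ccl3 (ENSMUSG00000000982, chromosome 11, 83647844 to 83649355 on GRCm38, minus strand) was at 35.1, 11.1 and 7.02 CPM in wild-type libraries 1, 2 and 3 and at 94.7, 16.6 and 17.4 CPM in the knockouts. The number 1 libraries were the highest of each genotype, and wild-type 1 lay above knockouts 2 and 3. Within pairs the knockout was 2.70, 1.5 and 2.49 times the wild-type. Group values were 17.7 ± 15.2 and 42.9 ± 44.9 CPM (mean ± SD, n = 3 each). The unpaired edgeR log2 change was 1.27 (SE 0.86), and in the paired DESeq2 fit Ccl3 rose by 1.10 (SE 0.21, adjusted p 3.01e-05).

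Ccl4 (ENSMUSG00000018930, chromosome 11, 83662584 to 83664683, plus strand) lies close by and is read from the opposite strand. Its levels were 80.1, 12.1 and 20.3 CPM in the wild-type and 159, 21.7 and 46.2 CPM in the knockout libraries 1, 2 and 3. Again the number 1 libraries were the highest, and each knockout exceeded its partner, by 1.99, 1.79 and 2.28 times. Group values were 37.5 ± 37.1 and 75.7 ± 73.4 CPM. Ccl4 rose by 1.00 on the log2 scale in the paired DESeq2 fit (SE 0.13, adjusted p 1.88e-10), after an unpaired edgeR change of 1.01 (SE 0.91).

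The unpaired edgeR changes of Ccl3 and Ccl4 turned to -0.06 and -0.15 without knockout 1, with wild-type 1 still in the fit. Without both number 1 libraries they were 0.91 and 1.07. In the paired DESeq2 fit the Ccl4 call held without pair 1, 2 or 3 (adjusted p 0.00267, 1.25e-07 and 0.00325), and the Ccl3 call was lost without pair 1 (change 0.95, adjusted p 0.120). In pair 3, where both libraries had high Xist, the ratio of Ccl4 was the highest of the 3 pairs, and that of Ccl3 lay between those of pairs 1 and 2.

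Ccl5, or RANTES, is typical of effector and memory T cells. This gene (ENSMUSG00000035042, chromosome 11, 83525778 to 83530518) did not follow Ccl3 and Ccl4. It measured 45.8, 9.15 and 13.0 CPM in the wild-type and 19.4, 9.88 and 12.2 CPM in the knockout libraries. The knockout value was below its partner in pair 1, at 0.422 times, and close to it in pairs 2 and 3, at 1.08 and 0.942 times. The unpaired log2 change was -0.71 (SE 0.61) and the paired DESeq2 change -0.42 (SE 0.28, adjusted p 0.690). Without wild-type 1 the unpaired change was 0.32.

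Ccl9, a CCR1 ligand also called MIP-1γ, lies in the same chromosome 11 cluster (ENSMUSG00000019122, 83572919 to 83578636). It measured 35.6, 28.3 and 7.44 CPM in the wild-type and 32.6, 26.4 and 9.51 CPM in the knockout libraries, so the replicate numbers differed more than the genotypes. Its paired DESeq2 change was 0.02 (SE 0.18, adjusted p 0.994). Ccr1, which also binds CCL3 and CCL5, was at 7.52, 11.3 and 5.26 CPM and at 9.48, 21.2 and 10.7 CPM. Each knockout exceeded its partner, and the change in the paired fit was 0.74 (SE 0.23, adjusted p 0.0508), which did not pass.

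Ccl20 (ENSMUSG00000026166, chromosome 1, 83116766 to 83119167) encodes the CCR6 ligand that recruits Th17 cells and dendritic cells to inflamed tissue. It measured 2.22, 2.64 and 5.79 CPM in the wild-type and 3.42, 5.85 and 16.1 CPM in the knockout libraries 1, 2 and 3. Here the number 3 libraries were the highest of each genotype and number 1 the lowest, whereas number 1 was the highest for Ccl3. The knockout was 1.54, 2.22 and 2.78 times the wild-type in the 3 pairs, and group values were 3.55 ± 1.95 and 8.45 ± 6.72 CPM. Ccl20 rose by 1.08 in the paired DESeq2 fit (SE 0.29, adjusted p 0.0123), and its unpaired edgeR change was 1.25 (SE 0.65). That call was lost without pair 2 (change 1.04, adjusted p 0.266) or pair 3 (change 0.88, adjusted p 1.0000), and the unpaired change was 0.36 without knockout 3. Ccr6 measured 12.8, 11.3 and 18.8 CPM in the wild-type and 26.7, 18.5 and 20.8 CPM in the knockout libraries (paired change 0.63, SE 0.23, adjusted p 0.132).

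Xcl1, or lymphotactin, attracts the XCR1-bearing dendritic cells that prime CD8 T cells, and it differed most between libraries among the 9 genes detected in all 6. Xcl1 (ENSMUSG00000026573, chromosome 1, 164931644 to 164935527) measured 46.3, 0.970 and 1.80 CPM in the wild-type and 545, 1.94 and 17.4 CPM in the knockout libraries. Knockout 1 alone held 27855 estimated counts, and wild-type 2 and knockout 2 held 43 and 95. Each knockout exceeded its partner, by 11.8, 2.00 and 9.70 times, yet wild-type 1 lay above knockouts 2 and 3. The paired DESeq2 fit gave a rise of 2.66 (SE 0.72, adjusted p 0.0143), and edgeR an unpaired change of 3.52 (SE 2.17). The paired call was lost without pair 3 (change 2.29, adjusted p 0.823) and kept without pair 1 (change 2.19, adjusted p 0.00688). Without knockout 1 the unpaired change turned to -0.76, and without wild-type 1 it was 7.07. Xcr1, the receptor, stayed between 0.338 and 1.98 CPM in all libraries (paired change 0.68, SE 0.58).

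CD8 T cells and NK cells are known sources of XCL1, CCL3 and CCL4, and some of their markers moved with the replicate numbers and with genotype. Of 6 CD8 T cell markers, all detected, Cd8a rose by 0.68 (SE 0.15, adjusted p 7.02e-04) and Klrc1 by 0.81 (adjusted p 6.83e-06). The summed level of the 6 was 864 to 1747 CPM in the wild-type and 1169 to 1439.6 CPM in the knockout libraries, of which Gzma alone made up 423 to 1245 CPM. Of 7 NK cell markers Klrd1 and Klrk1 rose by 0.67 and 0.70, with summed levels of 853 to 1564 CPM in the wild-type and 1123 to 1446 CPM in the knockout libraries. The NK-defining genes Ncr1 and Klrb1c were at no more than 0.286 and 2.05 CPM in any library. The part of these markers in the ligand values was not tested. The ratio of knockout to wild-type in pairs 1, 2 and 3 was 1.65, 1.29 and 1.96 for Cd8a and 0.371, 1.19 and 1.66 for Gzma. Paired DESeq2 changes were above 0 for 5 of the 6 CD8 T cell and 5 of the 7 NK cell markers. Gzma, which is in both lists, had a change of -0.14 (SE 0.61), and Eomes of -0.08 (SE 0.31).

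**Figure D2:**
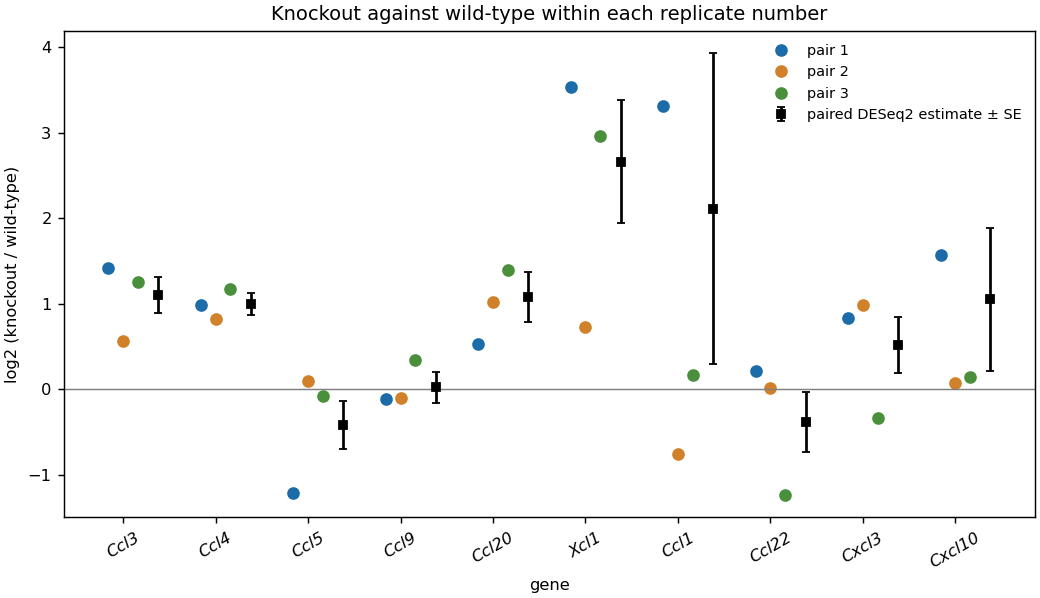
Log2 ratio of knockout to wild-type CPM + 0.5 for each ligand gene in pairs 1, 2 and 3 (coloured points) beside the paired DESeq2 log2 change with its SE (black squares). All 3 points lie above 0 for Ccl3, Ccl4, Ccl20, Xcl1 and Cxcl10, and the Xcl1 points run from 0.73 to 3.54.

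Ccl1, the ligand of CCR8 and a product of activated T cells, was a gene of few libraries. It had 74, 20 and 0 estimated counts in the wild-type and 1000, 3 and 3 in the knockout libraries (ENSMUSG00000020702, chromosome 11). Knockout 1 was at 19.5 CPM and wild-type 1 at 1.52 CPM, a ratio of 12.9, whereas the number 2 and number 3 knockouts were at 0.0614 and 0.0607 CPM, at the floor of 3 counts. The paired DESeq2 change of 2.11 had an SE of 1.82 (adjusted p 0.818), and the unpaired change of 3.31 became -3.38 without knockout 1. These fitted changes rest on counts near 0 and bound no fold change. Without pair 2, the paired fit gave 3.68 and an adjusted p of 3.07e-06. Ccr8 was at 9.67 to 26.4 CPM in the wild-type and 13.8 to 22.1 CPM in the knockout libraries.

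Ccl22, a CCR4 ligand better known from dendritic cells and macrophages, differed between pairs in direction. It measured 8.42, 12.9 and 5.68 CPM in the wild-type and 9.79, 13.0 and 2.13 CPM in the knockout libraries (ENSMUSG00000031779, chromosome 8, 94745590 to 94751699). The knockout was 1.16 and 1.01 times the wild-type in pairs 1 and 2 and 0.374 times in pair 3. Pairing in DESeq2 gave a change of -0.38 (SE 0.35, adjusted p 0.842), which became 0.10 without pair 3. Its receptor gene Ccr4 fell by 0.45 (SE 0.12, adjusted p 0.0179), from 51.9, 157 and 183 CPM to 43.2, 116 and 119.5 CPM. Dendritic cell markers gave summed levels of 18.9 to 34.0 CPM in the wild-type and 21.9 to 55.1 CPM in the knockout libraries, with Siglech at a rounded count of 0 in all 6 and Clec9a at no more than 0.226 CPM. Myeloid markers were detected for all 9 genes, and their sum was 73.6 to 241 CPM in the wild-type and 119.9 to 385 CPM in the knockout libraries. The sum was lowest in the number 3 library of each genotype, as Ccl22 was. It was higher in the knockout in each pair, however, and in pair 3 it went from 73.6 to 119.9 CPM while Ccl22 went from 5.68 to 2.13 CPM. Itgam, Mpeg1, Clec7a and Ctss rose. The part of these cells in the Ccl22 values was not tested.

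Cxcl3 and Cxcl10 are the CXC members. Cxcl3, a CXCR2 ligand that attracts neutrophils, measured 14.2, 3.29 and 2.92 CPM in the wild-type and 25.7, 7.0 and 2.21 CPM in the knockout libraries (ENSMUSG00000029379, chromosome 5, 90786103 to 90788086). The knockout was 1.81, 2.13 and 0.754 times the wild-type, so pair 3 went the other way, and the paired DESeq2 change of 0.52 (SE 0.33, adjusted p 0.643) did not pass. The sum of 7 B cell markers had the same order of libraries within each genotype but was higher in the knockout in all 3 pairs. It was 226, 85.2 and 59.9 CPM in the wild-type and 501, 214 and 69.4 CPM in the knockout libraries. Taken singly, 6 of the 7 were higher in all 3 pairs, and Cd79a was 0.937 times the wild-type in pair 3. None of the 7 was at 0, and Ms4a1, Cd22 and Blk rose. The part of B cells in the Cxcl3 values was not tested. Cxcl10, the interferon-induced ligand of CXCR3, had the lowest wild-type mean of the 10 (0.307 ± 0.0892 CPM), with 16, 17 and 10 estimated counts in the wild-type and 100, 21 and 14 in the knockout libraries (ENSMUSG00000034855, chromosome 5, 92346638 to 92348889). Knockout 1 was at 1.95 CPM and the other 5 libraries at 0.209 to 0.430 CPM. The ratios were 5.95, 1.12 and 1.36, with a change of 1.05 in the paired DESeq2 fit (SE 0.84, adjusted p 0.784). That change was 0.31 without pair 1, and the unpaired edgeR change of 1.53 was 0.21 without knockout 1. Ifng, whose protein induces CXCL10, rose by 0.94 (SE 0.27, adjusted p 0.0220). It measured 60.0, 15.5 and 3.64 CPM in the wild-type and 197, 17.4 and 7.02 CPM in the knockout libraries, in medium that held an antibody to IFN-γ.

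The number 1 library was the highest of its genotype in both genotypes for 7 of the 10 genes (Ccl1, Ccl3, Ccl4, Ccl5, Ccl9, Cxcl3 and Xcl1), as it was for 21.4% of all tested genes. Ccl20 and Ccl22 had their highest values in number 3 and number 2. Levels between genes are comparable only per transcript length. On that scale, in CPM per kb, the wild-type medians put Ccl4 first at 30.8, followed by Ccl9 at 27.6, Ccl5 at 24.4 and Ccl3 at 14.5. After these came Ccl22 at 4.12, Xcl1 at 3.44, Ccl20 and Cxcl3 at 3.26 each, Ccl1 at 0.878 and Cxcl10 at 0.292. Only Ccl3 and Ccl22 had ranges apart among neighbours in that order, at 9.16 or more and 5.84 or less. In the knockout the order by median was Ccl4 at 70.1, Xcl1 at 33.3, Ccl9 at 23.7, Ccl5 and Ccl3 at 22.8 each and Ccl20 at 7.24, then Cxcl3 at 6.93, Ccl22 at 4.42, Cxcl10 at 0.400 and Ccl1 at 0.105. Only Ccl3 and Ccl20 were separated there, at 21.7 or more and 19.6 or less, and Xcl1 ranged from 3.72 to 1041.

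**Figure D3:**
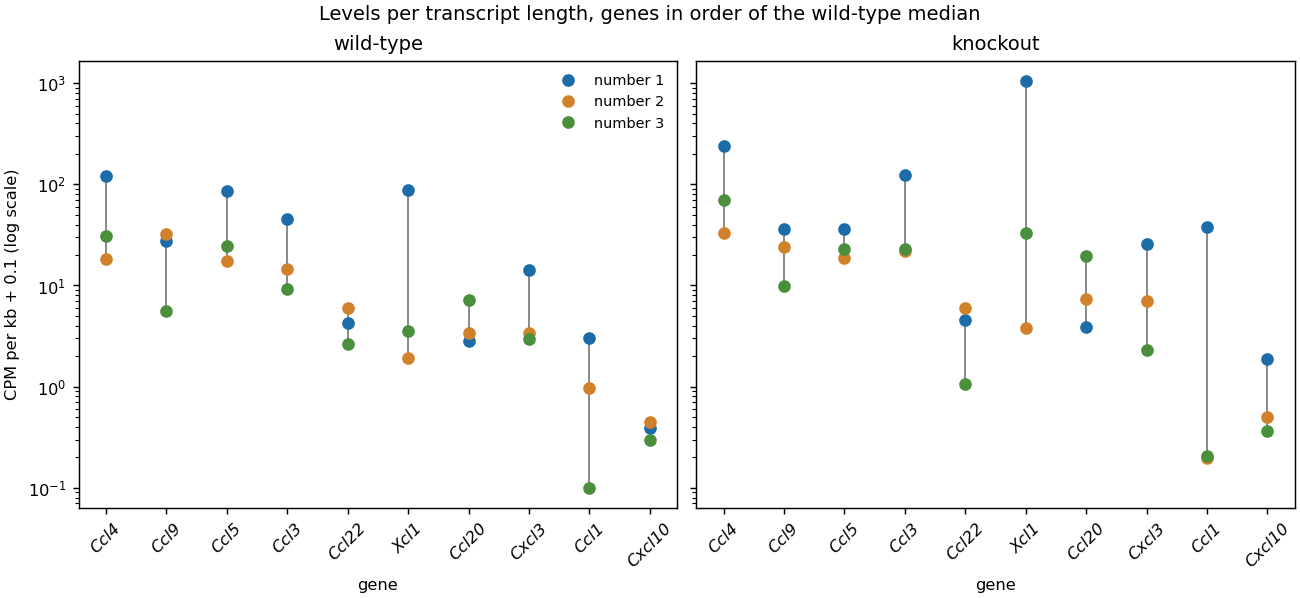
Level of each ligand gene in CPM per kb of transcript + 0.1 on a log axis, wild-type on the left and knockout on the right, with a point for each library and a line over the range of 3. Ccl4, Ccl9, Ccl5 and Ccl3 hold the highest wild-type medians (14.5 to 30.8 CPM per kb), and Xcl1 spans 3.72 to 1041 CPM per kb in the knockout.

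Of the 18 transcripts, 12 were tested one by one. Neither edgeR fit called any transcript in the table (0%), with 1.73% of 36508 at an unadjusted p under 0.05 without the block and 4.05% with it; of the 12, Ccl20-002 was under 0.05 without it and 4 were with it. DESeq2 with the block called 3 of the 12, the lone transcripts of Ccl3, Ccl4 and Xcl1, and 1.13% of all transcripts (0.529% as higher). Split in this way, Ccl20 was not called: Ccl20-001 had a paired DESeq2 change of 0.96 (SE 0.44, adjusted p 0.470) and Ccl20-002 of 2.29 (SE 1.07, adjusted p 0.485). Ccl20-002 keeps in its exon 619 bases (chromosome 1, 83118077 to 83118695) that lie in an intron of Ccl20-001, by GENCODE M21 on GRCm38. It took 3.85%, 3.46% and 5.22% of the gene's counts in the wild-type and 25.8%, 3.72% and 7.75% in the knockout libraries. The 95% Wilson interval of knockout 1, 19.8% to 32.7%, lay above those of the other 5 libraries, whose highest bound was 9.87%. It rests on 45.2 of 175 estimated counts. The intervals cover counting error only.

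Ccl9-002 is a noncoding transcript that starts inside the leading intron of Ccl9-001 and has 39 bases of its own. It took 20.3%, 37.2% and 18.5% of the gene's counts in the wild-type and 35.1%, 26.0% and 31.4% in the knockout libraries, with no separation of the genotypes. Ccl5-002, which retains an intron, took no more than 2.72% in any library. Cxcl10-002 and Cxcl10-003 had less than 1 count in every library.

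**Figure D4:**
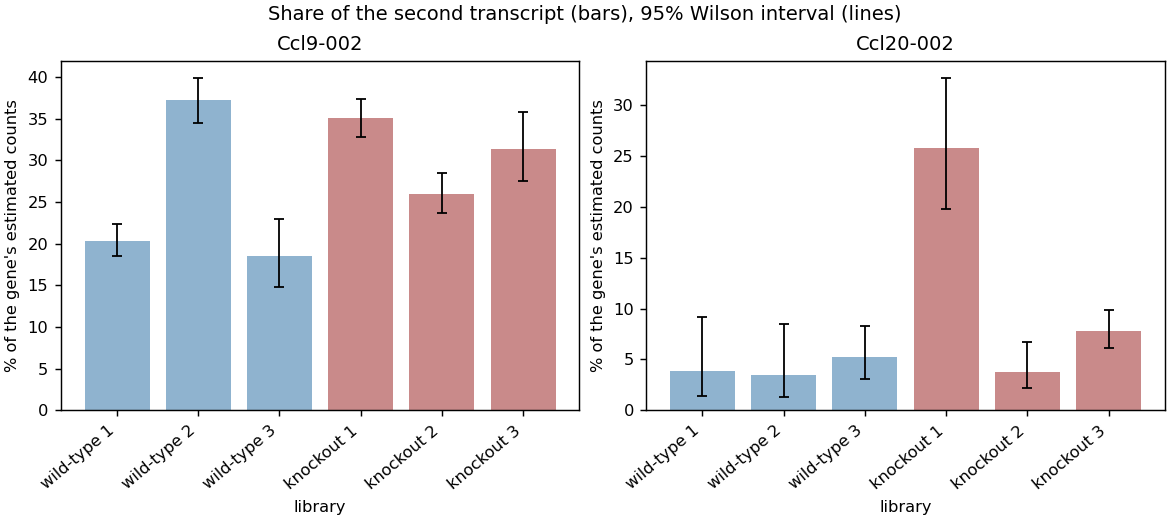
Share of each gene's estimated counts assigned to Ccl9-002 (left) and Ccl20-002 (right) in the 6 libraries, wild-type in blue and knockout in red, with 95% Wilson intervals that cover counting error only. The share of Ccl20-002 is 25.8% in knockout 1 and no more than 7.75% in the other 5 libraries.

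The stretch before a start site is where factors that switch a chemokine gene on often bind, NF-kB among them. RefSeq promoter entries (GRCm38.p6) matched 8 of the 10 genes, and not Ccl4 and Ccl5. In each, the 240 bases from 250 to 11 before the RefSeq start were searched on both strands for the kB consensus of NF-kB, for TGANTCA (AP-1), the interferon-stimulated response element (ISRE, here GAAA, any 2 bases, GAAA), TTCNNNGAA (the STAT-bound GAS element), AGGTCA (the half-site of ROR factors such as RORγt) and TATAAA. The kB consensus was found in 5 of the 8 (Ccl1, Ccl9, Ccl20, Cxcl3 and Cxcl10) and in 6.96% of 32851 promoters. AGGTCA was in 3 (Ccl3, Ccl20 and Ccl22) and in 13.5% of promoters. AP-1 was in 2 (Ccl9 and Cxcl10; 6.58%), TATAAA in 2 (Ccl9 and Cxcl3; 12.1%), ISRE in Cxcl10 only (2.87%) and GAS in none (6.77%). For Ccl1 and Ccl22 the window overlaps the gene as the deposited table gives it. A match describes the letters and is no evidence of binding. Of the 3 genes that rose and have an entry, Ccl3, Ccl20 and Xcl1, only Ccl20 held the kB consensus, and Xcl1 held none of the 6 motifs.

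These 5 windows are shown for the 3 genes that rose and for both CXC genes, 5′ to 3′ along each gene, with every motif match in capitals. They lie at chr11:83649389-83649628 (minus strand), chr1:83116516-83116755 (plus), chr1:164935533-164935772 (minus), chr5:90785851-90786090 (plus) and chr5:92348900-92349139 (minus) on GRCm38.p6.
Ccl3: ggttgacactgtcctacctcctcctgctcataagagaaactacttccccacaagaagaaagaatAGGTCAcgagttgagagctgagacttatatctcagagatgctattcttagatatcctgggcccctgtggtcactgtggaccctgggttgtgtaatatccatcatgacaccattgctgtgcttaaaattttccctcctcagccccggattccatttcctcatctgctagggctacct
Ccl20: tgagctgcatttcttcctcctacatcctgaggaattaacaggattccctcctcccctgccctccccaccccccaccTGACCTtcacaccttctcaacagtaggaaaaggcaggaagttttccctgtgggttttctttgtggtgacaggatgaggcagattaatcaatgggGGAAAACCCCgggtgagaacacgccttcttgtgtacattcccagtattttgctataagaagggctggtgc
Xcl1: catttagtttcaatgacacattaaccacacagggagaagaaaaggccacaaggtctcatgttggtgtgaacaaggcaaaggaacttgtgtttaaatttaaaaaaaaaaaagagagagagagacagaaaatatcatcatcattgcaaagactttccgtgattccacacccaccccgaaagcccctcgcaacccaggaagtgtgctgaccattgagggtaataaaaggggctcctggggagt
Cxcl3: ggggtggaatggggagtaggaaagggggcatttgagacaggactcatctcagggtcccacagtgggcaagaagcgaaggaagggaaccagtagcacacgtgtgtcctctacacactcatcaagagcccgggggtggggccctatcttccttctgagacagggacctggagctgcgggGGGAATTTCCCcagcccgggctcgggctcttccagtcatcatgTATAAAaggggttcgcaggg
Cxcl10: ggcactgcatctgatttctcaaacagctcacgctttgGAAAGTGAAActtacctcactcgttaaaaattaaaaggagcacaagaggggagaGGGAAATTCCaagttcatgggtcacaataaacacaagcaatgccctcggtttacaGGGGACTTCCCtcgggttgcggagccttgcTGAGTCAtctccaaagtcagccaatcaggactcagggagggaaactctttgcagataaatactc
The capitals in Ccl3 mark AGGTCA. In Ccl20 they mark AGGTCA read from the other strand and then a kB match. Cxcl3 has overlapping kB matches on both strands, GGGAATTTCC and GGAATTTCCC, and TATAAA. Cxcl10 has, in order, the ISRE, a kB match, 2 kB matches that overlap, GGGGACTTCC and GGGACTTCCC, and the AP-1 site TGAGTCA.

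Among 31 other chemokine ligand genes 8 were tested and none rose or fell in DESeq2 with the block, and edgeR called none. A further 8 had a rounded count of 0 in every library, among them Ccl19 and Cxcl13, ligands made by lymphoid stroma. Ccl6, a CCR1 ligand of myeloid cells, was the most abundant, at 3.39, 64.1 and 2.42 CPM in the wild-type and 1.60, 101 and 5.02 CPM in the knockout libraries. Its high values fell in the number 2 libraries, where the myeloid gene Lyz2 was also highest, at 58.7 and 116 CPM. Ccl27a, which encodes a skin-homing attractant, was at 5.87 ± 1.51 CPM in the wild-type and 4.45 ± 0.631 CPM in the knockout libraries. The interferon-induced partners of Cxcl10, Cxcl9 and Cxcl11, did not exceed 0.225 CPM. Of the 9 receptors of the 10 ligands all were tested, and Ccr4 fell. Cxcr3, the receptor of CXCL10, was at 9.51 ± 5.43 CPM in the wild-type and 10.6 ± 4.32 CPM in the knockout libraries. Of 5 atypical receptors, which do not signal through G proteins, Ccrl2 and Ackr2 were tested and did not pass.

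By the root-mean-square difference of centred log2(CPM + 0.5) over the 6 libraries, the tested genes nearest in pattern were picked from 8925 with a mean of at least 10 CPM. Ccl3 was nearest to the NK receptor genes Klrk1 (0.21) and Klrc1 (0.25) and to Bcl2a1b (0.21), against a spread of 1.18 of Ccl3 around its own mean. Ccl4 was nearest to Tagap (0.24), Serpine2 (0.30) and the perforin gene Prf1 (0.36), with its own spread at 1.26. For Xcl1 the nearest were Cd160 (1.34), Crtam (1.65) and Ms4a4c (1.74), the farthest neighbours of any member, with a spread of 3.02. Ccl1 was nearest to Serpinb9 (0.67), Gzmc (0.70) and Serpinb6b (0.73), and Ccl5 to Rpl30 (0.29), Dock9 (0.30) and Tbc1d9b (0.34). Ccl22 was nearest to Sema4a (0.16), the macrophage marker gene Cd68 (0.24) and Sap25 (0.28), and Ccl9 to Nlrc5 (0.24), Gbp8 (0.26) and Tlr1 (0.31). Ccl20 was nearest to Paqr8 (0.35), Slc25a15 (0.38) and Gm14149 (0.45). Cxcl3 lay nearest to Gbp6 (0.29), Tbx21 (0.29) and Cd79a (0.31), and Cxcl10 to Alcam (0.13), Coro2a (0.16) and Ikzf2 (0.19). These distances describe 6 libraries that share replicate numbers.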

How the data were processed

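The 6 libraries were stranded mRNA libraries, per the labels' protocols. The deposited table holds estimated counts and lengths per transcript for 93480 transcripts; the submitters' processing notes name Bowtie2 2.1.0, eXpress 1.3.1 and GRCm38. The estimated counts were summed per gene and rounded. Low values lie near 1.5 for short and near 1.06 for long transcripts, so a count is not exactly a read. CPM used library totals over the tested genes, scaled by edgeR's TMM composition factors. The 15121 genes kept by filterByExpr were tested with edgeR 4.0.16 (quasi-likelihood, TMM, no block; SE from the F statistic), with DESeq2 1.42.0 and limma 3.58.1 as alternatives. Same-numbered libraries pair: their deviations from the group means correlated across genes at 0.60, 0.45 and 0.64. The labels call the libraries biological replicates and do not say what a number shares. DESeq2 with the block gave no adjusted p for 880 genes. Pair ratios on the log scale used CPM + 0.5.

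The members and lists were chosen with earlier results of these data known. Named outside the members were the receptors and other ligands with a mean of at least 5 CPM, list genes that passed or that define a cell type, and the 3 genes nearest each member in pattern. Pair ratios and counts of ranges that do not overlap were added after seeing the data. The fits were tested on simulated data, where DESeq2 called unchanged genes more often than its threshold allows, with and without the block. Values of some list genes are not reported here.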

Additional observations from a re-analysis of the deposited data

How the results depend on the processing

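The fits that moved the calls were those of DESeq2. It called 13 genes without the block and 381 with it (154 higher, 227 lower), beside 0 in edgeR. Leaving out a library in edgeR gave 0 to 1 genes (1 without knockout 1), and leaving out a replicate number in DESeq2 with the block gave 149 to 264 (176 without number 1). Among the 10 ligand genes DESeq2 with the block called 4, and 2 to 4 without a replicate number, and among their transcripts it called 3. edgeR with the replicate block, limma-voom and other scalings or filters called 0 genes.

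Log2 changes that turned sign were as follows. Without knockout 1, edgeR gave -3.38 for Ccl1, -0.06 for Ccl3, -0.15 for Ccl4, -0.57 for Cxcl3 and -0.76 for Xcl1. Ccl5 turned to 0.32 without wild-type 1 and to 0.02 without number 1 in DESeq2 with the block. Ccl9 was 0.04 in edgeR and 0.02 in DESeq2 with the block, 0.05 in limma-voom without it, and 0.35, 0.09 and 0.29 without wild-type 1, wild-type 2 and knockout 3. It was 0.01 in edgeR without number 1 and 0.13 and 0.09 in DESeq2 with the block without numbers 1 and 2. Ccl22 was 0.24 and 0.32 without wild-type 2 and knockout 3, and 0.08 in edgeR and 0.10 in DESeq2 with the block without number 3. Over the edgeR fits that leave out a library, the changes ran from -3.38 to 4.84 (Ccl1), -0.06 to 2.24 (Ccl3), -0.15 to 2.22 (Ccl4), -1.08 to 0.32 (Ccl5), -0.50 to 0.35 (Ccl9), -0.63 to 0.32 (Ccl22), -0.57 to 1.90 (Cxcl3), 0.21 to 1.92 (Cxcl10) and -0.76 to 7.07 (Xcl1). The cause was not tested. Fits with the block that leave out a number have 1 residual degree of freedom. Depth limits Ccl1 and Cxcl10, which had 0 to 21 counts in several libraries.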

Other observations

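Tbx21, which encodes the Th1 factor T-bet, rose in DESeq2 with the block by 0.74 (adjusted p 7.43e-04), from 35.0, 8.37 and 6.52 CPM in wild-type to 61.7, 15.1 and 9.65 CPM in knockout libraries. With Ifng it made 2 of 8 tested genes of the interferon-γ axis. Of 12 factors induced through the T cell receptor, Egr3 alone rose, by 1.51 (adjusted p 0.0430). Among 6 Th17 markers Il17f rose and Il17a fell, and of the 2 platelet markers tested Itga2b fell. None of these genes passed in edgeR with or without the block.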
